A study of Mus musculus with 16 samples.

Results

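The microRNA miR-29a-3p was followed in extracellular RNA from HCT116, a human colorectal carcinoma cell line, after X-irradiation. It was taken by its name in the array design, hsa-miR-29a-3p, which 2 of the 3523 probes on each array carried, and it is 1 of the 1205 human miRNAs on the array and 1 of the 283 that entered the tests. Cultures had been irradiated at a high dose rate with 0 Gy (unirradiated), 2 Gy, 6 Gy or 10 Gy, and every one was then kept for 72 h in RPMI1640 with 10% fetal bovine serum, per the labels. Each dose had 4 cultures, described as independent in the series' design text, which lists 0, 6 and 10 Gy only, and each culture's supernatant was hybridised to 1 array, giving 16 arrays. The labels name the mouse as the organism, but HCT116 is of human origin and the probes target human miRNAs, which is how the values are described here. All groups are 1 cell line, and the medium held bovine serum. The array does not separate cellular from serum miR-29a-3p, and the part of serum was not tested. In supernatant, fewer releasing cells and less miRNA released per cell cannot be told apart. From each sample 100 ng of RNA was labelled and arrays were scaled, so levels are relative to other miRNAs and not the total released.

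miRNAs are short RNAs that guide Argonaute proteins to messenger RNAs by pairing of their seed, the bases near the 5′ end, and lower the output of those messengers. The miR-29 family is known for targeting transcripts of the extracellular matrix, fibrillar collagens and elastin among them, and loss of miR-29 is a feature of tissue fibrosis. Family members also target the DNA methyltransferases DNMT3A and DNMT3B and the survival factor MCL1, and in colorectal cancer miR-29a has been studied as a circulating marker. Cells export miRNAs in vesicles and in protein complexes. Messenger RNAs and proteins were not measured here, so nothing below bears on the targets.

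The mature sequences are shown because the 3 main arms of the family share a seed and differ little outside it, which matters for reading the probes. They are from RefSeq's mouse entries (build GRCm38.p6), the sequence table used here, and the mature miR-29 3p arms are known to be the same in mouse and human. Capitals mark the seed, bases 2 to 8 counted from the 5′ end.
miR-29a-3p (chr6:31062673-31062694, minus strand): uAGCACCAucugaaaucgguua
miR-29b-3p (chr6:31063025-31063047, minus strand, and a copy at chr1:195037091-195037113, plus strand): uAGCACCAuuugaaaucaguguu
miR-29c-3p (chr1:195037600-195037621, plus strand): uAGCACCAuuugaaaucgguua
Of the 1679 mature names in that table, these 3 carried the seed AGCACCA, whose paired stretch in a messenger reads UGGUGCU. From miR-29a-3p to miR-29c-3p there is 1 substitution, C10U, counted from the 5′ end. From miR-29a-3p to miR-29b-3p there are 4 within the shared length, C10U, G18A, U21G and A22U, and miR-29b-3p is 1 base longer. The hairpin from which miR-29a is cut shows where the measured arm lies, in capitals, with the 5p arm upstream of the loop.
Mir29a hairpin (chr6:31062660-31062747, minus strand): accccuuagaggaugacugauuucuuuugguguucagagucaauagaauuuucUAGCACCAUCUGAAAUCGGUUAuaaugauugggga

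A miRNA counted as detected where over 0.5 of a probe's spots were well above background, and by this rule an array detected a median of 307 human miRNAs (range 242 to 358). The arrays of 0 and 2 Gy were on 1 slide and those of 6 and 10 Gy on the other, so slide and dose cannot be told apart for 6 or 10 Gy against 0 or 2 Gy. Of the epithelial and colon markers, miR-200c-3p and miR-141-3p were each detected on 15 of the 16 arrays and miR-31-5p on 11. miR-200b-3p was detected on 8, miR-429 on 6 and miR-200a-3p on 4, while miR-192-5p, miR-194-5p and miR-215-5p were detected on none. Of the 11 markers of blood cells, miR-486-5p and miR-155-5p were detected on all 16 arrays and the other 9, miR-451a and miR-223-3p among them, on none. The liver marker miR-122-5p was detected on 4 arrays, and 4 of the 5 mesenchymal markers on none, miR-145-5p being detected on all 16. Of the muscle markers, miR-133a-3p and miR-206 were detected on 16 arrays, miR-133b on 13 and miR-1-3p on none.

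The level of a miRNA is given as log2 of its scaled signal, each array having been divided by its own 75th percentile over the 518 probes detected on all arrays, with a floor at -4.60. miR-29a-3p was detected on 15 of the 16 arrays. Its level at 0 Gy was 1.40, 1.68, -1.87 and 1.63 in replicates 1 to 4. At 2 Gy it was -2.31, 0.27, -2.18 and -2.87. The 4 arrays at 6 Gy had levels of -2.96, -0.63, -1.74 and -4.60, and the last of these, replicate 4, is the floor. For 10 Gy the levels were -0.44, 0.43, -0.34 and -1.82. Replicates 1, 2 and 4 at 0 Gy lay above every irradiated array, whereas replicate 3 at 0 Gy lay among the irradiated ones, so the range at 0 Gy overlapped that of each dose. Replicate 2 was the highest array at each of the 4 doses. Over the 4 arrays of a dose the mean was 0.71 ± 1.73 without irradiation, -1.77 ± 1.39 after 2 Gy, -2.49 ± 1.70 after 6 Gy and -0.54 ± 0.94 after 10 Gy (SD, n = 4 each). From high to low the order was therefore 0, 10, 2 and 6 Gy, which is not the order of dose.

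**Figure D1:**
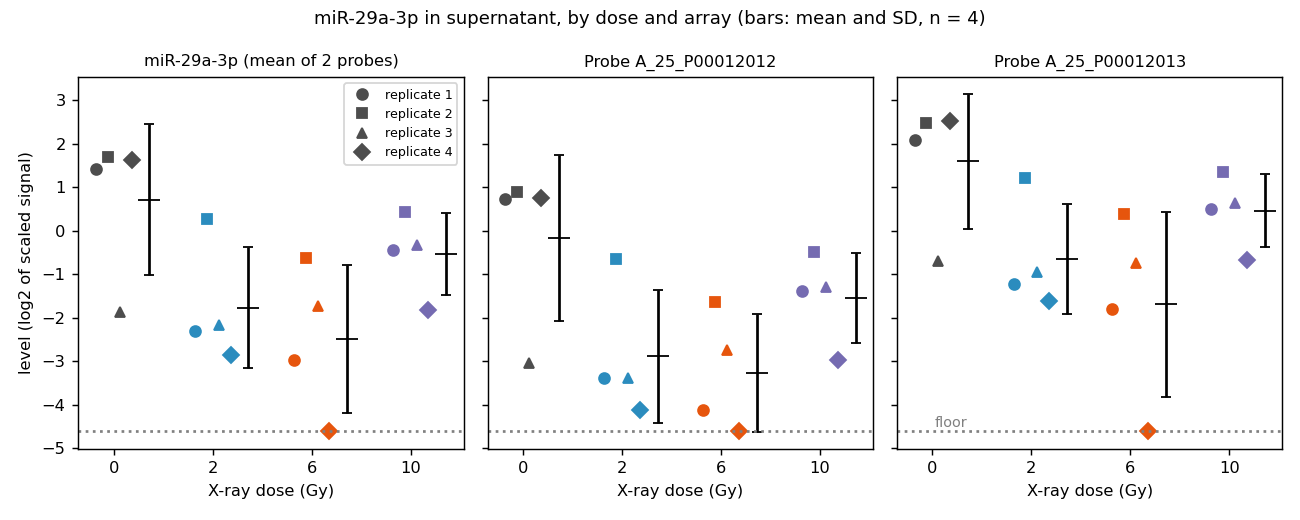
Level of miR-29a-3p (log2 of scaled signal) against X-ray dose in Gy, as the mean of its 2 probes (left) and for each probe (middle and right). Symbols are single arrays by replicate number, black bars are mean and SD (n = 4), and the dotted line is the floor at -4.60. At 0 Gy replicates 1, 2 and 4 lie between 1.40 and 1.68 in the left panel and replicate 3 at -1.87.

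Each probe was printed 20 times on an array, and after outlier spots were left out 14 to 20 spots of a probe remained. Probe A_25_P00012013 had a background-subtracted intensity of 1466, 3280, 331 and 2314 in replicates 1 to 4 at 0 Gy, and 212, 1567, 192 and 156 at 2 Gy. At 6 Gy its intensity was 194, 773, 206 and 13.0, and at 10 Gy it was 671, 1068, 630 and 179. Probe A_25_P00012012 was dimmer on every array, with 578, 1087, 65.8 and 674 at 0 Gy and 47.6, 429, 35.6 and 27.5 at 2 Gy. At 6 Gy it gave 38.4, 192, 52.3 and -0.93, and at 10 Gy 181, 296, 165 and 36.5. By intensity both probes thus placed replicate 2 highest at every dose, replicate 3 lowest at 0 Gy, and replicate 4 lowest at 2, 6 and 10 Gy. On 6 Gy replicate 4 no spot of either probe was well above background, and the dimmest detected probe of that array had 19.1. The scanner software's own flag for the miRNA as a whole did call it detected there, with a total gene signal of 5.05 ± 1.60 (the software's error). On the 15 arrays that detected it the coefficient of variation between spots of a probe ran from 1.87 to 19.998%, with a median of 6.30%. The probes differed by 1.34 to 2.50 on the log2 scale on those 15 arrays, and their levels correlated at Pearson's r = 0.996 over them (Spearman's rho = 0.982, permutation p = 1.0e-05 for each, the smallest that the resamples can give).

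At 6 Gy miR-29a-3p fell by 3.20 ± 0.96 on the log2 scale (SE; 95% interval -5.26 to -1.13), which is 9.17-fold lower, with means of -2.49 at 6 Gy against 0.71 at 0 Gy (limma's moderated test on all 16 arrays, adjusted p = 0.0407 over the 283 miRNAs). All 4 arrays at 6 Gy lay below the mean of 0 Gy, and 2 of them below its lowest array. In this comparison 19.4% of the tested miRNAs passed in either direction, 13.4% as lower and 6.01% as higher. miR-29a-3p had the second largest fall of the 283 and ranked 33 by p-value. 6 Gy replicate 4 lay at the floor, which bounds its level, and it shared with 0 Gy replicate 3 the lowest labelling spike-in of the 16 arrays (-2.32 on the log2 scale). The difference was -2.49 without 6 Gy replicate 4 and -1.99 with the spike-in as a covariate.

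The exact two-sided permutation test of the same 8 values gave p = 0.0857 (adjusted 0.171 over the 6 pairs of doses), where 4 against 4 arrays can give 0.0286 at the smallest. The call at 6 Gy held in 5 of the 16 fits that each left out 1 array, and the adjusted p ran from 0.0502 to 0.114 in the other 11. Those 11 were the fits without 0 Gy replicate 1, 2 or 4, 2 Gy replicate 1, 3 or 4, 6 Gy replicate 1, 3 or 4, and 10 Gy replicate 1 or 3. The difference itself ran from -4.06 without 0 Gy replicate 3 to -2.49 without 6 Gy replicate 4. The call was also lost with no scaling between arrays (-3.05, adjusted p = 0.124) and in a fit of the 8 arrays of these doses alone (-3.20, adjusted p = 0.144).

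At 2 Gy the difference from 0 Gy was -2.48 ± 0.96 (SE; 95% interval -4.55 to -0.41), with means of -1.77 at 2 Gy against 0.71 at 0 Gy, and did not pass (limma, adjusted p = 0.0940, with 12.7% of miRNAs passing in either direction, 6.71% as lower and 6.01% as higher). Its 4 arrays lay below the mean of 0 Gy and 3 of them below the lowest 0 Gy array, the exception being 2 Gy replicate 2 at 0.27. The exact two-sided permutation p was 0.0571 (adjusted 0.171). Without 0 Gy replicate 3 the difference was -3.34 (adjusted p = 0.00925), and without 2 Gy replicate 2 it was -3.16 (0.0305). Without both it was -4.02 (0.00177), so these fits passed. These arrays are the lowest at 0 Gy and the highest at 2 Gy, so leaving them out widens the difference by construction. The difference also passed when labelling spike-in was a covariate (-1.97, adjusted p = 0.0161). The arrays of these doses share a slide, and within that slide alone the difference did not pass (adjusted p = 0.156).

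At 10 Gy the difference from 0 Gy was -1.25 ± 0.96 (SE; 95% interval -3.32 to 0.81), with means of -0.54 at 10 Gy against 0.71 at 0 Gy, and did not pass (limma, adjusted p = 0.466, with 0.353% of miRNAs passing in either direction). All 4 arrays at 10 Gy lay below the mean of 0 Gy, none of them below its lowest array, and the exact two-sided permutation p was 0.314 (adjusted 0.377). Without 0 Gy replicate 3 the difference was -2.12 (adjusted p = 0.0950). The 3 comparisons use the same 0 Gy arrays, so their shared direction is not 3 separate results.

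**Figure D2:**
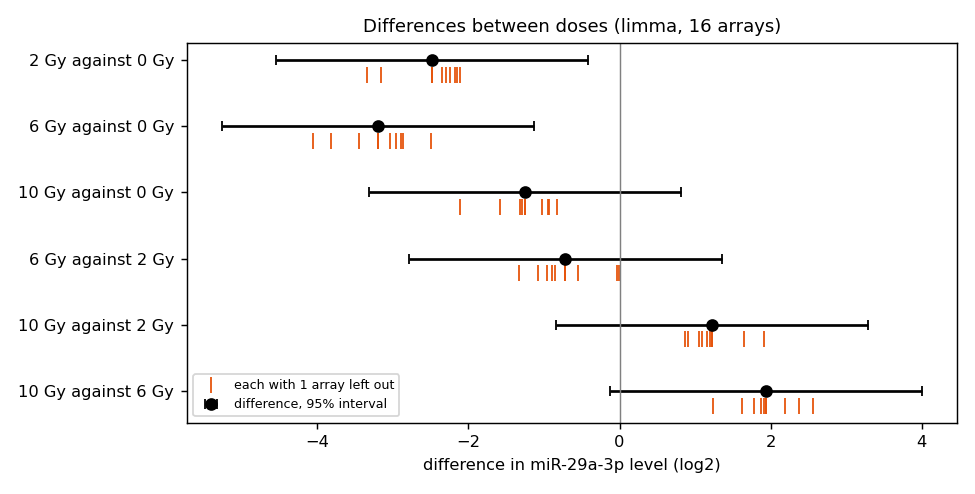
Difference in miR-29a-3p level (log2) for the 6 pairs of doses, named tested dose first, with its 95% interval from limma on 16 arrays (black) and the values with each array left out in turn (orange ticks). The interval excludes 0 for 2 and for 6 Gy against 0 Gy, before adjustment over miRNAs.

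Among the irradiated doses no pair passed. miR-29a-3p was higher at 10 than at 6 Gy by 1.94 ± 0.96 (SE; 95% interval -0.13 to 4.01; limma, adjusted p = 0.326), with means of -0.54 at 10 Gy and -2.49 at 6 Gy, which share a slide. The exact two-sided permutation p was 0.0857 (adjusted 0.171), and none of the 4 arrays at 10 Gy lay below the mean of 6 Gy. Between 10 and 2 Gy the difference was 1.23 ± 0.96 (SE; limma, adjusted p = 0.543), and between 6 and 2 Gy it was -0.72 ± 0.96 (0.944). Neighbours in the order 0, 10, 2 and 6 Gy therefore did not differ beyond their spread. The slope was -0.09 ± 0.11 per Gy (SE; limma, adjusted p = 0.784), and limma's F test across the 4 doses gave F = 4.25 (adjusted p = 0.118). In these 5 tests, 3 pairs, slope and F, 0% of the 283 miRNAs passed, against 42 at an unadjusted p under 0.05 for 10 against 6 Gy, 20 for 10 against 2 Gy, 14 for 6 against 2 Gy, 36 for the slope and 91 for the F test.

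Each probe was also fitted by itself, among 592 probes. At 6 Gy probe A_25_P00012012 fell by 3.11 ± 0.97 (SE; limma, adjusted p = 0.0442) and probe A_25_P00012013 by 3.29 ± 0.98 (0.0417) relative to 0 Gy. At 2 Gy the differences from 0 Gy were -2.72 for A_25_P00012012 (adjusted p = 0.0716) and -2.24 for A_25_P00012013 (0.128). At 10 Gy the difference was -1.37 for A_25_P00012012 (adjusted p = 0.433) and -1.14 for A_25_P00012013 (0.513).

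The arrays of a dose differed more for miR-29a-3p than for most miRNAs. Its SD about the dose means was 1.47, the third largest of the 283, against a median of 0.23. It moved with the labelling spike-in, an RNA from Agilent's kit that reports how well an array's sample was labelled. Earlier results of these data, not shown here, had the spike-in moving with many miRNAs, so this relation was not taken as particular to miR-29a-3p. Other miRNAs were not set against the spike-in here. The spike-in, on the log2 scale of the scanner software's value, was 10.1, 8.30, -2.32 and 9.31 in replicates 1 to 4 at 0 Gy, and 1.02, 6.97, 6.40 and 4.88 at 2 Gy. It was 1.67, 5.50, 5.95 and -2.32 at 6 Gy, and 6.85, 9.02, 7.58 and 6.06 at 10 Gy. The lowest value, -2.32, was that of 0 Gy replicate 3 and 6 Gy replicate 4, the lowest miR-29a-3p arrays of their doses. The next lowest was 1.02, and whether -2.32 is a lower limit set by the software was not tested. If it is, Pearson's r and the fit with the spike-in as a covariate rest on a bound for these arrays. In the software's accepted range lay 3 of the 16 arrays, 0 Gy replicates 1 and 4 and 10 Gy replicate 2. No array at 2 or 6 Gy lay in that range, so labelling outside it and these doses cannot be told apart.

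Over the 16 arrays the level of miR-29a-3p and the labelling spike-in had a Pearson's r of 0.809, with a permutation p = 3.0e-05 that was 6.0e-05 after adjustment over 10 values. Spearman's rho was 0.893, with a permutation p = 1.0e-05, the smallest the resamples can give (adjusted 3.3e-05). On the slide of 0 and 2 Gy r was 0.729 (exact permutation p = 0.0361) while rho was 0.738 (exact p = 0.0458). On the slide of 6 and 10 Gy r was 0.958 (exact permutation p = 6.4e-04) while rho was 0.905 (exact p = 0.00456). With dose means removed r was 0.853 (permutation p = 2.0e-05), and leaving out the 2 arrays with the most extreme spike-in relative to its median gave 0.834. The p with dose means removed is approximate. Its deviations were shuffled across doses, although they were centred within each dose and spread unequally between doses. The hybridisation spike-in, added later in the procedure, correlated with miR-29a-3p at r = 0.424 (permutation p = 0.102, adjusted 0.143) and rho = 0.412 (p = 0.115, adjusted 0.143).

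By dose the labelling spike-in averaged 6.35 ± 5.83 without irradiation, 4.82 ± 2.68 after 2 Gy, 2.70 ± 3.86 after 6 Gy and 7.38 ± 1.26 after 10 Gy (SD, n = 4 each). It was higher at 10 than at 6 Gy by 4.68, with an exact two-sided permutation p = 0.0286 (adjusted 0.171 over the 6 pairs), and at 6 Gy it differed from 0 Gy by -3.65 (exact p = 0.343, adjusted 0.643). With the spike-in as a covariate the difference of miR-29a-3p from 0 Gy was -1.97 ± 0.52 at 2 Gy, -1.99 ± 0.56 at 6 Gy and -1.60 ± 0.52 at 10 Gy (SE; limma, adjusted p = 0.0161, 0.0480 and 0.0436), so that each passed. In that fit 10 and 6 Gy differed by 0.39 ± 0.58 (SE; adjusted p = 0.868), against 1.94 without the covariate. Without both arrays at the lowest spike-in value, a setting chosen after seeing the data, the difference from 0 Gy was -3.34 at 2 Gy (adjusted p = 0.00348), -3.35 at 6 Gy (0.00769) and -2.12 at 10 Gy (0.0523).

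**Figure D3:**
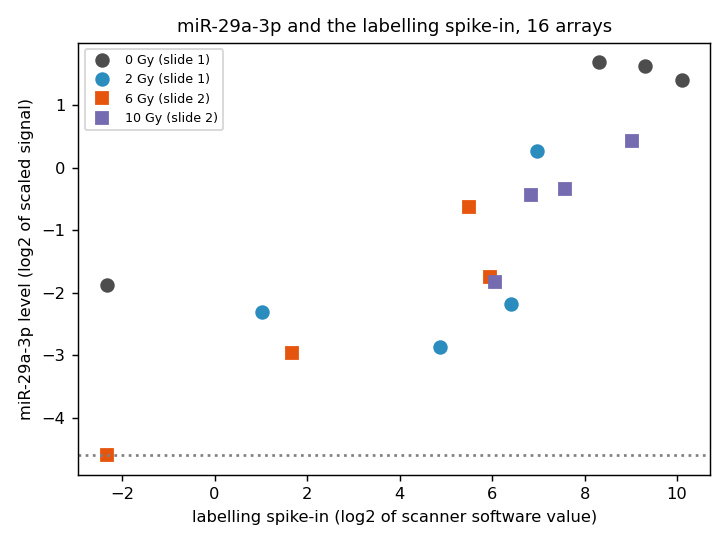
Level of miR-29a-3p (log2 of scaled signal) against the labelling spike-in (log2 of the scanner software's value) on the 16 arrays, coloured by dose, with circles for the slide of 0 and 2 Gy and squares for that of 6 and 10 Gy. Arrays with more spike-in signal had more miR-29a-3p (r = 0.809), and 6 Gy replicate 4 lies at the floor and at the lowest spike-in value.

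Of the other 6 arms of the family, miR-29c-3p alone was detected on any array. miR-29b-3p, the passenger arms miR-29a-5p and miR-29c-5p, and miR-29b-1-5p and miR-29b-2-5p were below detection on all 16. miR-29c-3p, which differs from miR-29a-3p by 1 base, was detected on 3 of 4 arrays at 0 Gy, 1 at 2 Gy, none at 6 Gy and 1 at 10 Gy. Those 5 arrays were the 5 with the highest miR-29a-3p levels. The level of miR-29c-3p was -3.17, -2.90, -4.60 and -2.88 in replicates 1 to 4 at 0 Gy. It was -4.44 in replicate 2 at 2 Gy and -4.48 in replicate 2 at 10 Gy, and the remaining irradiated arrays lay at the floor. The 0 Gy replicate 3 array, lowest of its dose for miR-29a-3p, was at the floor as well. Whether miR-29a-3p contributes to the miR-29c-3p probes by cross-hybridisation was not tested.

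miR-29c-3p was not detected on all 4 arrays of any dose and so was not among the 283. With all 4 arrays at 6 Gy and 3 of 4 at 2 and at 10 Gy on the floor, the irradiated doses had next to no measured spread, and no test of it is given.

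**Figure D4:**
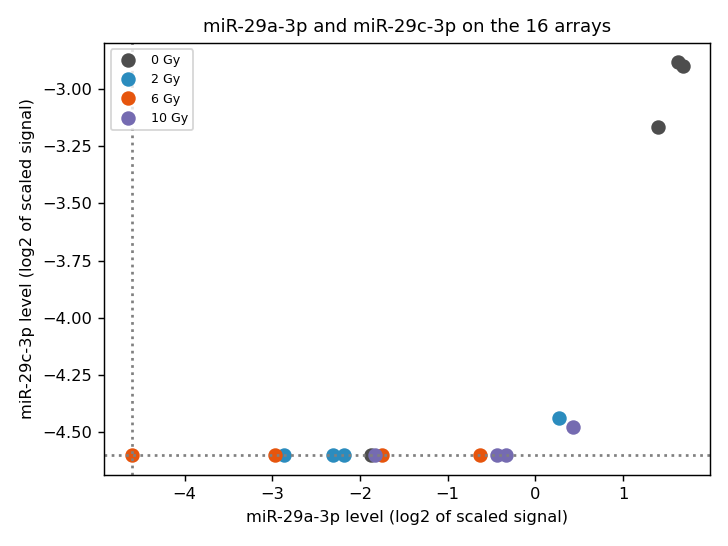
Level of miR-29c-3p against that of miR-29a-3p (both log2 of scaled signal) on the 16 arrays, coloured by dose, with dotted lines at the floor. The 5 arrays with miR-29c-3p above the floor are those with the highest miR-29a-3p, 3 of them at 0 Gy.

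Other miRNAs linked to fibrosis and the extracellular matrix were read from a list of 21 names, all on the array, of which 8 were tested. At 6 Gy 2 of the 8 were lower and 1 higher than at 0 Gy, with a median difference of -1.28 against 0.12 over all 283, of which 13.4% were lower and 6.01% higher. miR-21-5p, raised in fibrotic tissue and carcinomas, fell by 2.72 ± 0.66 and let-7i-5p, of the differentiation-linked let-7 family, by 1.92 ± 0.53, while miR-155-5p, an immune-cell miRNA, rose by 0.31 ± 0.09 (SE; limma, adjusted p = 0.0304, 0.0353 and 0.0407). miR-200c-3p, a guardian of epithelial identity, differed by -2.50 (adjusted p = 0.0514) and the p53-induced miR-34a-5p by -1.96 (0.0867). At 2 Gy 1 of the 8, miR-21-5p, was lower (-2.79, adjusted p = 0.0225) and none higher, with a median of -0.89 against 0.03, where 6.71% of all 283 were lower and 6.01% higher, so 1 of 8 is near the share over all miRNAs. At 10 Gy none of the 8 passed in either direction (0.353% of all 283), with a median of -0.58 against -0.02. The 3 tested epithelial and colon markers, miR-200c-3p among them, had lower medians of -1.37, -2.07 and -0.74 at 2, 6 and 10 Gy. The 3 tested muscle markers had 0.09, 0.31 and -0.17. A low median is thus not particular to miRNAs linked to fibrosis. The 8 tested members were detected on 11 to 16 arrays. miR-21-5p lay at the floor on 5 arrays, miR-34a-5p on 3, and let-7i-5p and miR-200c-3p on 2 each, so the sizes and errors of their differences are partly set by the floor.

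Of 11 names of miRNAs known to target DNA methyltransferases or EZH2, a histone methyltransferase, 4 were tested. At 6 Gy let-7b-5p (-2.24 ± 0.65) and let-7c-5p (-2.24 ± 0.68) fell relative to 0 Gy (SE; limma, adjusted p = 0.0407 each), while miR-148b-3p (-0.98, adjusted p = 0.119) and miR-342-3p (-0.75, 0.142) did not pass. The median difference of the 4 from 0 Gy was -1.09 at 2 Gy, -1.61 at 6 Gy and -0.45 at 10 Gy, against 0.03, 0.12 and -0.02 over all 283. The epithelial and colon markers had lower medians at each dose, so this too is not particular to the list. At 2 and 10 Gy 0 of the 4 passed, and the share of all miRNAs passing in either direction was 12.7% at 2 Gy, 19.4% at 6 Gy and 0.353% at 10 Gy. let-7c-5p and miR-148b-3p lay at the floor on 1 array each and miR-342-3p on 5.

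The miRNAs whose pattern over the 16 arrays was most like that of miR-29a-3p were miR-324-3p (Pearson's r = 0.987), let-7c-5p (0.977), miR-210-3p (0.974), miR-200c-3p (0.974) and let-7b-5p (0.972), out of 282 compared. miR-210-3p is the miRNA best known for its induction by hypoxia. These values describe likeness only, since the arrays share labelling, scaling and the floor, and 34 of the 282 had an r above 0.9. With dose means removed the 5 values were 0.982, 0.960, 0.956, 0.961 and 0.966, and without scaling they were 0.927, 0.970, 0.965, 0.973 and 0.958. At 6 Gy miR-324-3p fell by 1.21 ± 0.39 (SE; limma, adjusted p = 0.0430) and miR-210-3p by 2.29 ± 0.65 (0.0374) relative to 0 Gy. The miRNAs least like it were miR-711 (r = -0.936), miR-1225-5p (-0.930) and miR-514b-5p (-0.919), and without scaling these were -0.591, -0.391 and -0.589. miR-711 was higher at 2 Gy by 0.61 ± 0.18 and at 6 Gy by 0.66 ± 0.18 relative to 0 Gy (SE; limma, adjusted p = 0.0417 and 0.0353), while miR-1225-5p (0.22 and 0.25) and miR-514b-5p (0.59 and 0.63) did not pass. In all, 162 of the 282 had an r below 0, with a median of -0.33. Because the named miRNAs were picked by their correlation with miR-29a-3p on the same arrays, their differences are not separate results. Of all 283, 13.4% passed as lower at 6 Gy, and 6.01% as higher at 2 Gy and at 6 Gy.

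Under other choices of processing or fit the difference of miR-29a-3p from 0 Gy stayed below 0 at each dose. It ran from -4.02 to -1.90 at 2 Gy, from -4.06 to -1.99 at 6 Gy and from -2.12 to -1.05 at 10 Gy. These are 18, 17 and 17 settings, apart from the fits that left out 1 array. The lowest value at each dose came from a fit without 0 Gy replicate 3 and 2 Gy replicate 2, not from the processing. At 6 and 10 Gy leaving out 0 Gy replicate 3 alone gave the same values, -4.06 and -2.12. Among the settings is the permutation test, which keeps the reported difference.

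**Figure D5:**
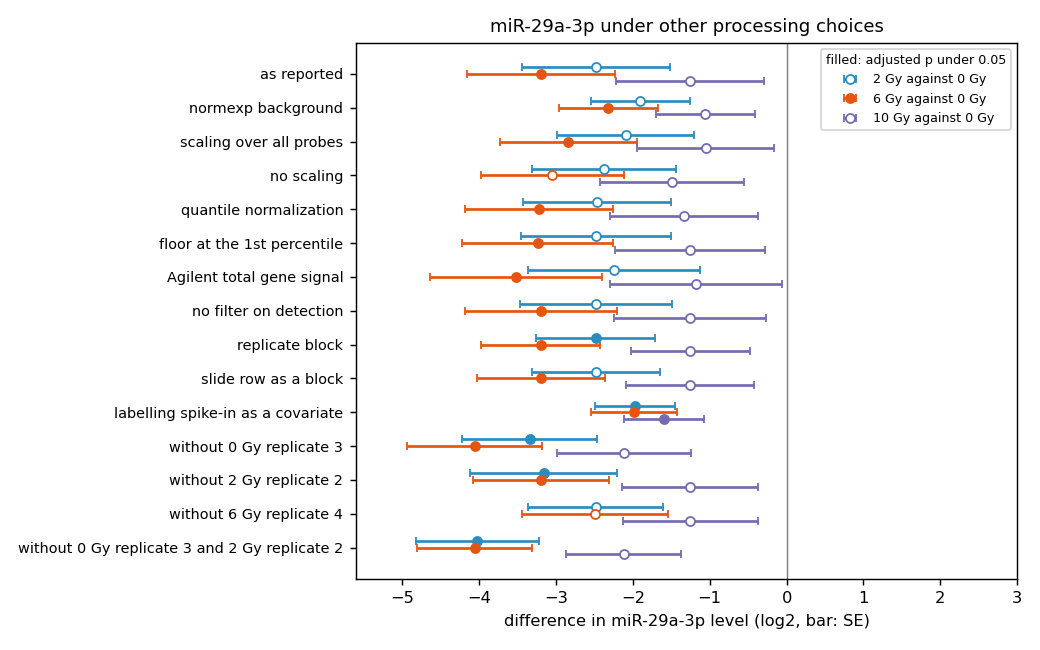
Difference in miR-29a-3p level from 0 Gy (log2, bars are SE) at 2, 6 and 10 Gy under 15 settings of the processing or the fit. Filled symbols have an adjusted p under 0.05 (limma, over all miRNAs tested). All the values lie below 0, and at 2 Gy the filled symbols are the replicate block, the spike-in covariate and the 3 fits that left out 0 Gy replicate 3, 2 Gy replicate 2 or both.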

How the data were processed

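Per the labels' protocols, small RNA was extracted from supernatant (ISOGEN), and 100 ng of RNA received Cy3 label. The deposited scanner output holds 1 single-colour Agilent array per sample, read by the authors with Feature Extraction 11.5.1.1 as the headers state. Its spot values are deposited as background-subtracted intensity, unscaled across arrays. The detection flags set by the same software were deposited in other columns.

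Control spots (2164 of 56044) and outlier-flagged spots (3.27 to 4.90% per array) were left out, and no spot was saturated. Spots of a probe were averaged, arrays scaled to the 75th percentile of the 518 probes detected on all arrays, floored at 0.0412 (set from the 5th percentile of detected probes) and put on the log2 scale. A change common to every miRNA is lost by this scaling, and levels are not comparable between probes. A miRNA was tested if a probe was detected on all 4 arrays of a dose, and its value is the mean over such probes (592 probes, 283 miRNAs).

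limma 3.58.1 in R 4.3.3 fitted a mean per dose on all 16 arrays, with Benjamini-Hochberg adjustment over the 283 and a threshold of 0.05. The fit was tested on simulated data of the 6 against 0 Gy comparison, in which 60 of 283 miRNAs were changed. Changes of 1 log2 unit were found in 83.2% of cases, changes of 2 units in 94.4%, and 3.20% of calls were false. Simulated noise was independent between miRNAs and had no floor, unlike the data, so these shares do not carry over to the arrays. The shares of changes found are averages over miRNAs with a median SD of 0.23, against 1.47 for miR-29a-3p. Single values were compared with exact permutation tests of 70 regroupings, and correlations with 100000 resamples, or all 40320 orders of 8 arrays (Python 3.11.15, scipy 1.17.1, matplotlib 3.10.9). The number of arrays limits the precision.

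The miRNA, the lists and the alternatives were chosen with earlier results of these data known. The text names miR-29a-3p, the miR-29 family, the 5 most and 3 least correlated miRNAs, and, of the fibrosis and epigenetic lists, the tested members that passed and the 4 with the largest difference at 6 Gy. Markers of cell types are named outside this rule, to give the arrays that detected them. Replicate numbers were taken from the labels. They were not taken to pair the cultures.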

Additional observations from a re-analysis of the deposited data

Results flagged for a closer look

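In 4 of the 16 groups of 4 arrays examined for an array far from the rest (the level of miR-29a-3p, each of its probes and the labelling spike-in, at each dose), 1 array stood apart by Dixon's criterion, which compares the gap to the nearest array with the group's range. All 4 were 0 Gy replicate 3. Its level of miR-29a-3p was -1.87, with a gap of 0.921 of the range. Probe A_25_P00012012 read -3.04 (0.961) and probe A_25_P00012013 read -0.71 (0.863) on the same array. Its labelling spike-in was -2.32 (0.855). The first 3 are the same measurement in parts, and chance flags about 1 in 20 groups.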

How the results depend on the processing

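Of the results for miR-29a-3p, none changed direction under any alternative. At 6 Gy the call was lost with no scaling (-3.05), in a fit of the compared doses alone (-3.20) and by the exact permutation test (-3.20, adjusted p = 0.171). At 2 Gy the difference passed with the replicate block (-2.48, limma, adjusted p = 0.0432) and the spike-in covariate (-1.97). It also passed without 0 Gy replicate 3 and 2 Gy replicate 2 (-4.02), the lowest array at 0 Gy and the highest at 2 Gy. Chosen after seeing the data, the fit without 6 Gy replicate 4 and 0 Gy replicate 3 passed too (-3.34). At 10 Gy the difference passed with the spike-in covariate (-1.60). The F test passed with that covariate (6.29) and without either of those pairs of arrays (12.5 and 8.55). With 1 array left out the differences ran from -3.34 to -2.12 at 2 Gy, -4.06 to -2.49 at 6 Gy and -2.12 to -0.83 at 10 Gy, and F from 3.00 to 8.09, passing only without 0 Gy replicate 3. The cause was not tested. Labels do not say that replicate numbers mark a shared batch. Same-numbered arrays deviated together (r over 0.1) in 14 of 24 pairs, with r from 0.59 to 0.87 in the 6 pairs of replicate 2 and from -0.76 to 0.85 in those of replicate 4. Of the 16 arrays, 5 correlated best with their own number, and the replicate block changed no other call for miR-29a-3p. Slide could not be fitted as a block, since each dose lies on 1 slide.

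The number of miRNAs passing was 36 at 2 Gy, 55 at 6 Gy and 1 at 10 Gy. It was 129, 177 and 22 with scaling over all probes, 71, 127 and 27 with quantile normalization, 19, 34 and 0 with normexp, 0 at each dose with no scaling, 56, 90 and 8 with no filter on detection, and 68, 75 and 7 with the replicate block. With 1 array left out the counts ran from 0 to 121, 0 to 143 and 0 to 43. Scaling over all probes moved the median difference of all miRNAs to 0.40, 0.47 and 0.18, and miR-29a-3p relative to it was -2.49, -3.31 and -1.23, against -2.51, -3.31 and -1.24 as reported.

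Of the other named miRNAs, 14 of 1092 values changed sign, all of differences that had not passed. For miR-1225-5p these were -0.0787, -0.0630 and -0.109 at 2, 6 and 10 Gy with quantile normalization and -0.182 at 10 Gy with no scaling, and with 1 array left out its 10 Gy value ran from -0.00691 to 0.163. For miR-148b-3p at 10 Gy they were 0.0260 (normexp), 0.0441 (scaling over all probes) and 0.0210 (quantile), and with 1 array left out the value ran from -0.429 to 0.0919. For miR-342-3p at 10 Gy they were 0.0194 (normexp) and 0.0439 (scaling over all probes), and with 1 array left out the value ran from -0.528 to 0.0269.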
